A study of Mus musculus with 8 samples.

Results

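The baseline transcriptome of Adar-heterozygous mouse beta cells was described from the 4 libraries labelled Adar heterozygote (Het 1 to Het 4), which are 4 of the 8 libraries of the study. The study sequenced total RNA of sorted beta cells with floxed Adar. The Het mice carried MipCreER, one floxed and one wild-type Adar allele (Adar floxed/+) and the R26R-EYFP reporter, received tamoxifen at 1 month of age in 2 doses of 8 mg, and gave islets 7 days later. Islets were dissociated and YFP-positive beta cells were sorted. Cre activity, tamoxifen, the reporter and the Adar floxed/+ genotype were thus shared by all 4 libraries, and none came from untreated or Adar wild-type mice. Recombination of the floxed Adar allele was not measured here. The Cre is driven by an insulin promoter fragment, so that the sort selects cells by a beta-cell promoter. The labels do not say whether a library came from 1 animal or from several. With 1 group there was no comparison to test, and every result below is a description of the 4 libraries with its spread.

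Beta cells are the insulin-producing cells of the pancreatic islets. They translate preproinsulin into the endoplasmic reticulum, fold it, cut it to insulin in the secretory granule and release it when glucose metabolism closes ATP-sensitive potassium channels and opens calcium channels. Adar encodes the enzyme that turns adenosine into inosine in double-stranded RNA, which keeps cellular RNA from being read as viral by cytosolic sensors that induce interferon.

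Levels are given in 2 quantities. The share of reads is the percent of all gene-assigned reads of a library that fell in a gene or class, and it weighs long transcripts more than short ones. The length-scaled level is the number of reads per exonic base scaled to 1000000 per library (TPM), over genes with at least 200 exonic bases, and it is the only quantity by which genes are compared with each other. Which library is highest or lowest for a gene, and how far its level ranges, is stated for these quantities. They are relative to each library's own total, and both statements can change with another scaling. As a ruler for genes that are not transcribed in beta cells, the 99th percentile of the TPM of 1304 olfactory and vomeronasal receptor genes was taken in each library (the receptor level). It was 3.71 TPM in Het 1, 2.54 in Het 2, 1.62 in Het 3 and 3.98 in Het 4. Of 20574 nuclear protein-coding genes, 51.1% were above the receptor level in each of the 4 libraries. At a fixed limit of 1 TPM in each library, 22542 genes of all kinds were counted as detected, of which 14398 were protein-coding and 2937 were processed pseudogenes, and 50 of the 1304 receptor genes also passed it.

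Adar itself, of which these cells carry 1 floxed and 1 wild-type allele, stood at 44.1, 47.5, 37.1 and 38.9 TPM in Het 1 to Het 4 (41.9 ± 4.74, SD, n = 4). It ranked 2259th among nuclear protein-coding genes. Reads over the whole gene were counted together, so the value does not separate intact from recombined transcripts. The libraries held 5925893, 7034878, 12819040 and 8096111 reads. The 95% exact binomial interval of a class share reached at most 13.0% of the share on either side. That was for mitochondrial transfer RNA, the class with the fewest reads. For insulin genes the intervals of Het 1 (8.28% to 8.33% of reads) and Het 3 (10.37% to 10.41%) lay far apart. For cytosolic ribosomal protein genes those of Het 1 (0.716% to 0.730%) and Het 2 (0.718% to 0.731%) overlapped, so counting error was not small beside every difference. These intervals cover counting error only.

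A small number of genes took most of the signal. The 10 genes with the largest mean share took 26.9% of reads, the top 100 took 37.7% and 474 genes made up 50% of reads. The 10 were Ins2, the mitochondrial ribosomal RNA gene mt-Rnr2, the small gene Gm23935, Ins1, mt-Rnr1, Malat1, Gm26917, Chga, Gm42418 and Iapp, in that order. By class, nuclear protein-coding genes took 79.1% ± 0.860 (SD, n = 4) of reads, mitochondrial ribosomal RNA 6.85% ± 0.612, long intergenic non-coding RNA 5.30% ± 0.303 and genes annotated as miRNA 4.52% ± 0.697. Per length the concentration was steeper: Ins2 and Ins1 together held 30.3% of the length-scaled level of nuclear coding genes, the top 10 coding genes held 40.3%, and 115 genes held 50%.

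**Figure D1:**
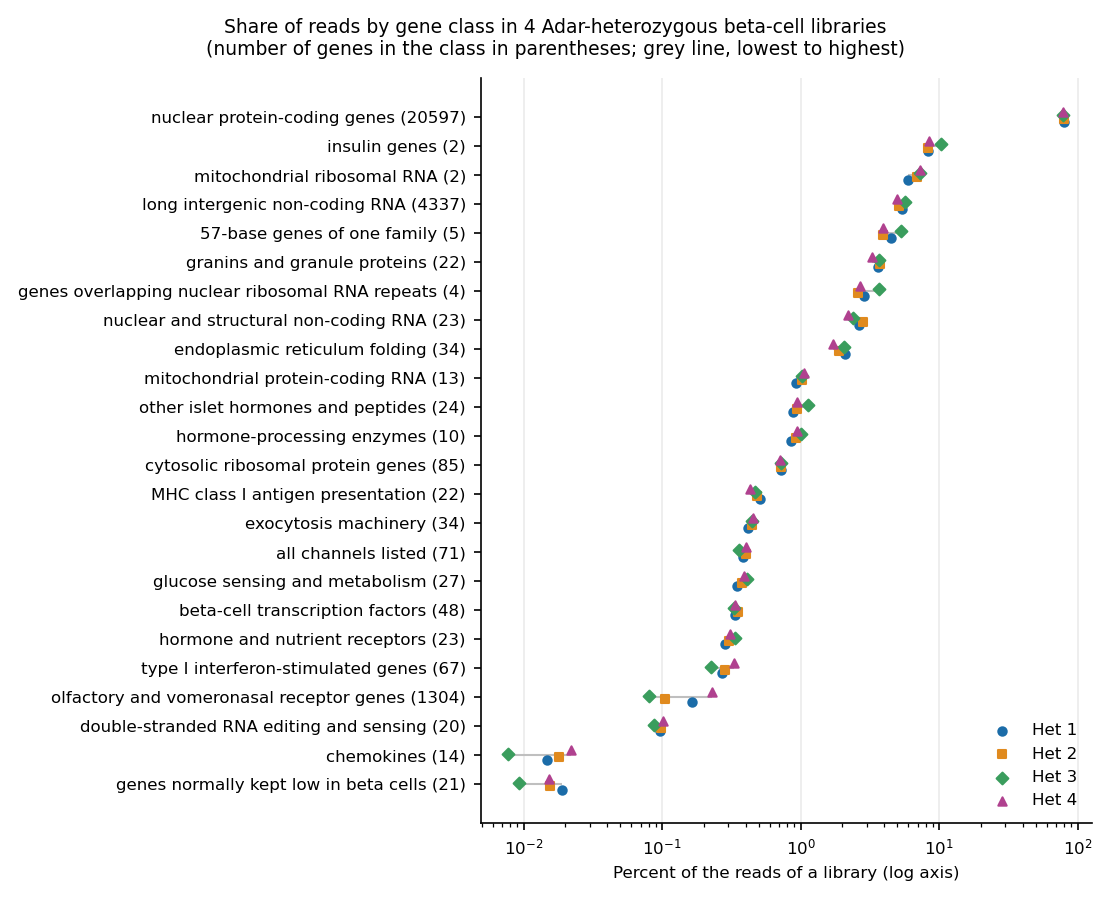
Percent of the reads of each library (log axis) for 24 gene classes, with 1 point per library and a grey line from the lowest to the highest. Insulin genes lie between 8.30% and 10.4%, cytosolic ribosomal protein genes lie within 0.707% to 0.725%, and the widest spreads are those of chemokines, olfactory and vomeronasal receptor genes and genes normally kept low in beta cells.

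Rank 3 by reads went to a 57-base locus that GENCODE annotates as a miRNA, Gm23935 (chr16:11144125-11144181 in mm10, + strand). It held 263073 reads in Het 1, 271231 in Het 2, 676958 in Het 3 and 316256 in Het 4, or between 3.86% and 5.28% of a library. GENCODE holds 4 further genes of the same small family, and their sequences are shown because gene-level counts of near-identical copies depend on how reads were assigned among them. They are written 5′ to 3′ in lower case. In a gene as long as Gm23935, a base that differs from it is in capitals. Gm25911 is shorter, so no base of it is marked, although its sequence also differs from that of Gm23935.
Gm23935: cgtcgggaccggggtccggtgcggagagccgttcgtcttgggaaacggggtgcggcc
Gm24187: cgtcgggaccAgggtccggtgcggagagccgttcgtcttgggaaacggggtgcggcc
Gm25911: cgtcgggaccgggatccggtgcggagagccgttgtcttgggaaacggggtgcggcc
Gm24245 on chromosome 4 and Gm24270 on chromosome 9 have the same 57 bases as Gm23935. Gm24187 on chromosome 13 differs from it by the single substitution G11A, counted from 1 at the 5′ end, and Gm25911 on chromosome 1 has 56 bases. The reads were not shared out evenly: Gm23935 held between 152 and 179 times the reads of Gm24245 and Gm24270 together. Since 3 loci have the same sequence, a read inside it cannot be given to 1 of them by sequence, and the share is better read for the 5 genes together, which took 4.42% ± 0.667 (SD, n = 4) of reads. None of the 2671 miRNA sequences of the RefSeq table lay within the 57 bases, so the reads are not shown to be a miRNA. Gm23935 is too short for a length-scaled level here, and with genes of all lengths it would take 66.3% of the length-scaled total.

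The 4 listed genes that are known to overlap or resemble nuclear ribosomal RNA repeats took 2.96% ± 0.506 (SD, n = 4) of reads. Gm23935 and its family are not in this list, so the share is not a total for ribosomal RNA. That family took 4.50%, 3.91%, 5.34% and 3.95% of reads in Het 1 to Het 4. Whether its reads come from ribosomal RNA was not tested. Gm42418 took 1.11%, 1.01%, 2.08% and 1.13% of reads in Het 1 to Het 4, and Gm26917 next to it on chromosome 17 took 1.69%, 1.51%, 1.49% and 1.48%. Per length, Gm42418 ranged 1.99-fold, with Het 3 highest and the other 3 close together, and Gm26917 ranged 1.18-fold. Lars2, a mitochondrial leucyl-tRNA synthetase gene whose locus holds a ribosomal RNA-like stretch, stood at 154, 154, 275 and 147 TPM, again highest in Het 3. The library kit named in the labels is one for total RNA, so the level of such genes also depends on ribosomal RNA removal, whose part was not tested.

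Mitochondrial RNA was dominated by its ribosomal RNAs, which made up 86.5% to 87.5% of mitochondrial reads. mt-Rnr2, the 16S ribosomal RNA, stood at 80146, 93935, 92481 and 91440 TPM, and mt-Rnr1, the 12S ribosomal RNA, at 47412, 53111, 58174 and 61178 TPM. Both were lowest in Het 1. The 13 mitochondrial protein-coding genes took 1.01% ± 0.0563 (SD, n = 4) of reads and fell into separate ranges: 7 of them (mt-Cytb, mt-Co1, mt-Nd5, mt-Nd1, mt-Nd4, mt-Nd2 and mt-Nd6) had means between 1174 and 5397 TPM, and the other 6 (mt-Atp6, mt-Co2, mt-Co3, mt-Atp8, mt-Nd4l and mt-Nd3) had means between 5.08 and 34.3 TPM. The low values are uncertain as levels, because part of the mitochondrial genome has a near-identical copy on mouse chromosome 1 and reads that fit both places may have been left out. The 7 pseudogenes annotated there held 118 to 385 reads per library, and the 6 low genes together held 58 to 452. Genes for cytosolic ribosomal proteins, 85 by symbol, took 0.718% ± 0.00802 (SD, n = 4) of reads, a range of 1.02-fold from the lowest to the highest library.

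The insulin genes led the transcriptome. Mice have 2, and Ins2 stood at 137536 TPM in Het 1, 134390 in Het 2, 154864 in Het 3 and 125982 in Het 4. Ins1 stood at 55574, 60036, 81696 and 65417 TPM, so both were highest in Het 3. Together they took 8.30%, 8.31%, 10.4% and 8.43% of reads (8.86% ± 1.02, SD, n = 4). Ins2 exceeded Ins1 in each library, by 1.90-fold to 2.47-fold, and Ins1 made up 28.8% to 34.5% of the 2 genes' level, more in Het 3 and Het 4 than in Het 1 and Het 2. The 2 genes are close paralogs, and reads that fit both were treated in a way the sources used here do not give. Exonic length is the union of annotated exons (1312 bases for Ins2 and 1062 for Ins1), longer than a mature insulin messenger, so these TPM values understate the insulin level in the same direction in all libraries.

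Iapp, which encodes amylin, the peptide stored with insulin, ranked 3 among coding genes at 23550, 25728, 30291 and 24503 TPM. It kept a nearly fixed proportion to insulin, between 12.2% and 13.2% of the summed insulin level. The 250 bases before the RefSeq start of Ins1 and Iapp are shown because these genes had ranks 2 and 3 among coding genes by level. Textbook regulators of them, Pdx1, Neurod1 and Mafa, were also themselves measured. RefSeq gives the 250 bases before the start on build GRCm38.p6, chr19:52264047-52264296 (+) for Ins1 and chr6:142298175-142298424 (+) for Iapp. Capitals mark the letters CATCTG, an E-box of the kind NEUROD1 binds, and TAAT, the core of homeodomain sites such as those of PDX1, each searched on both strands.
Ins1: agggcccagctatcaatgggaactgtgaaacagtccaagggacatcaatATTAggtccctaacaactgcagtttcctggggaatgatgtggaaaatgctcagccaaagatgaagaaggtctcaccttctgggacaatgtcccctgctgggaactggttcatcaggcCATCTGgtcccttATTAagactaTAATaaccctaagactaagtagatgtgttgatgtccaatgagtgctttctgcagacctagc
Iapp: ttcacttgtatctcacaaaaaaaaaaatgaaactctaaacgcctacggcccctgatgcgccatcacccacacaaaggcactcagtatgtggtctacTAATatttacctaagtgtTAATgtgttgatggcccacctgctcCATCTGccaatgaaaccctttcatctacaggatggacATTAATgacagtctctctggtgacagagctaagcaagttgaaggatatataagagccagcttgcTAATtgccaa
Each window held CATCTG once. Sequence past the RefSeq start was not searched, so the counts are those of these windows and not of a whole promoter. TAAT occurred 3 times before Ins1 and 5 times before Iapp, where 2 of the matches overlap by 2 bases. Of 27025 promoter windows of the same length, 14.5% held CATCTG, 17.8% held TAAT at least 3 times and 5.85% held it at least 5 times, so single matches are common and mark letters, not binding.

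Other islet hormones and peptides formed a steep series. Ucn3, which encodes urocortin 3, a peptide of mature beta cells, stood at 492, 573, 521 and 525 TPM, and Nucb2, the nesfatin precursor gene, at 536, 519, 480 and 457 TPM. Of the 24 genes of this list 11 (45.8%) were above the receptor level in each library, a share below the 51.1% of all nuclear coding genes, and 4 had a mean of at least 100 TPM. The remaining members ranged down to 0.732 TPM for Vip.

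Granule proteins were uniformly abundant. All 22 listed genes were above the receptor level in each library, 19 of them had a mean of at least 100 TPM, and their median was 491 TPM against 17.8 TPM over all nuclear coding genes above the receptor level. Chga, which encodes chromogranin A and is a common marker of endocrine granules, stood at 16096, 16384, 14072 and 11897 TPM, lowest in Het 4. Chgb, the chromogranin B gene, stood at 5774, 5095, 3842 and 4055 TPM and was higher in Het 1 and Het 2 than in Het 3 and Het 4. Scg2, for secretogranin II, stood at 3765, 4320, 4958 and 3962 TPM, and Scg3 at 1754, 1926, 2062 and 1850 TPM. The 22 genes together took 3.62%, 3.76%, 3.66% and 3.28% of reads, which varied 1.14-fold across the libraries.

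The enzymes that cut and trim prohormones were similarly high, and all 10 were above the receptor level in each library. Cpe, carboxypeptidase E, which removes the basic residues left by cleavage, stood at 1578, 1793, 1848 and 1821 TPM. Pcsk2, prohormone convertase 2, stood at 790, 893, 969 and 887 TPM, which was 2.15-fold to 2.42-fold the level of Pcsk1, the convertase of the same pathway. P4hb, a protein disulfide isomerase, stood at 1108, 1004, 1067 and 943 TPM. Scg5, which encodes the PCSK2 chaperone 7B2, stood at 1001, 1067, 898 and 623 TPM and was the one of the 4 with a clearly low library, Het 4.

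The folding machinery of the endoplasmic reticulum was as fully represented, with 34 of 34 genes above the receptor level and 27 with a mean of at least 100 TPM. Hspa5, the chaperone BiP, stood at 2956, 2359, 2611 and 2005 TPM, Hsp90b1 at 2018, 1784, 1879 and 1497 TPM, and Calr at 1921, 1488, 1436 and 1032 TPM. These 3 chaperones were lowest in Het 4, also after TMM scaling. They were highest in Het 1 in TPM and in Het 3 after TMM scaling. Under TMM 67.6% of all genes measured for variation were lowest in Het 4 and 76.0% were highest in Het 3. The class took 2.10%, 1.89%, 2.06% and 1.71% of reads.

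**Figure D2:**
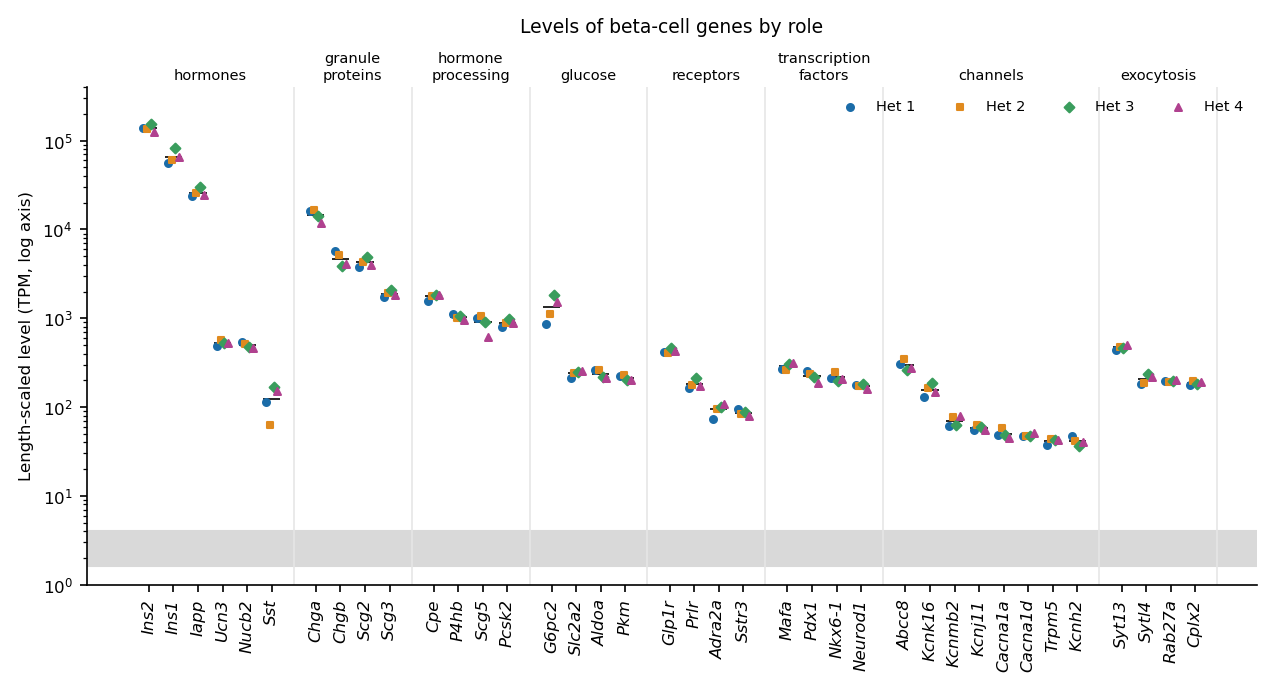
Length-scaled level (TPM, log axis) of 38 beta-cell genes grouped by role, with 1 point per library, a black line at the mean of 4 libraries and a grey band over the range of the receptor level (1.62 to 3.98 TPM). All genes shown lie above the band, mean levels of the hormones span from 124 TPM for Sst to 138193 TPM for Ins2, and those of the transcription factors from 173 to 287 TPM.

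Genes of glucose sensing and metabolism were mostly well above the receptor level. G6pc2, the islet glucose-6-phosphatase that opposes glucokinase, was the highest of the list at 868, 1109, 1804 and 1518 TPM, and the 2 libraries Het 3 and Het 4 were above Het 1 and Het 2 without overlap. Slc2a2, which encodes the glucose transporter GLUT2, stood at 210, 245, 249 and 255 TPM. Aldoa, the glycolytic aldolase gene, stood at 260, 260, 218 and 213 TPM, and Pkm, for pyruvate kinase, at 222, 228, 204 and 201 TPM. Of the 27 genes, 22 (81.5%) were above the receptor level in each library.

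Genes that beta cells normally keep low were low here. Only Cd44 and Oat, 2 of 21 genes (9.52%), were above the receptor level in each library, against 51.1% of nuclear coding genes. Cd44, a hyaluronan receptor gene, stood at 34.0, 27.1, 17.2 and 16.6 TPM, and Oat, ornithine aminotransferase, at 6.19, 4.70, 4.89 and 5.83 TPM. Mylk and Parp3, the next highest, had means of 3.93 and 3.92 TPM. Low Ldha and Slc16a1, for lactate dehydrogenase A and the lactate and pyruvate transporter MCT1, is a known feature of beta cells, and their means were 1.76 and 1.14 TPM. The high-affinity hexokinase genes Hk1 and Hk2 had means of 2.11 and 2.30 TPM. The list took 0.0189%, 0.0156%, 0.00921% and 0.0151% of reads, lowest in Het 3, the library in which the receptor genes were also lowest.

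Beta-cell transcription factors were far below insulin in level, and their summed share ranged 1.06-fold between libraries. Mafa, an activator of insulin transcription found in mature beta cells, stood at 271, 259, 305 and 315 TPM, and Pdx1, the homeodomain factor required for pancreas and beta-cell identity, at 255, 237, 218 and 188 TPM. Nkx6-1 stood at 213, 246, 198 and 208 TPM and Neurod1 at 177, 173, 181 and 160 TPM. Of 48 listed genes, 30 (62.5%) were above the receptor level in each library and 7 had a mean of at least 100 TPM. The list includes factors of other pancreatic lineages, and those were at the bottom: Neurog3, of endocrine progenitors, had a mean of 1.54 TPM, Ptf1a, of acinar cells, 0.893 TPM, Sox9, of ducts, 0.699 TPM, and Hhex, of delta cells, 0.903 TPM. The 48 genes took 0.333%, 0.352%, 0.333% and 0.333% of reads.

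Of 33 immediate early and stress-related transcription factor genes, 29 (87.9%) were above the receptor level and 10 had a mean of at least 100 TPM. Jund stood at 1519, 1215, 1183 and 1031 TPM, Jun at 554, 340, 289 and 308 TPM and Fos at 272, 217, 176 and 234 TPM. Jun and Fos are induced within minutes by cell handling in many tissues, and the contribution of islet dissociation and sorting to their level was not tested. Atf4, of the integrated stress response, stood at 344, 318, 402 and 328 TPM, and Xbp1, of the unfolded protein response, at 267, 270, 224 and 223 TPM. Jun and Fos were highest in Het 1, as was Jund in TPM but not after TMM scaling, where Het 3 was highest for it. The list took 0.449% of reads there against 0.379% to 0.395% in the other 3.

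Channels were measured from 71 genes, which took 0.387% ± 0.0205 (SD, n = 4) of reads. Among ATP-sensitive potassium, calcium and sodium channel genes, 13 of 23 (56.5%) were above the receptor level, a share close to the 51.1% of all nuclear coding genes. Abcc8, which encodes the sulfonylurea receptor SUR1, stood at 309, 348, 259 and 274 TPM, and Kcnj11, which encodes its pore partner Kir6.2, at 54.8, 63.1, 59.9 and 54.9 TPM. The 2 proteins assemble in equal numbers, while the Abcc8 RNA was 4.33-fold to 5.64-fold the level of the Kcnj11 RNA. The voltage-gated calcium channel genes Cacna1a and Cacna1d had means of 49.8 and 48.5 TPM, and Cacna1d ranged from 47.3 to 51.4 TPM. Among the other channels, 30 of 48 (62.5%) were above the receptor level. Kcnk16, the islet potassium channel TALK-1, stood at 130, 163, 188 and 147 TPM, Kcnmb2, a subunit of calcium-activated potassium channels, had a mean of 69.8 TPM, Trpm5, a calcium-activated cation channel, 41.3 TPM, and Kcnh2 41.1 TPM.

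The exocytosis machinery was nearly complete, with 33 of 34 genes above the receptor level and Myrip, at a mean of 3.31 TPM, the exception. Syt13, an atypical synaptotagmin, was highest at 437, 479, 464 and 498 TPM. Rab27a, the small GTPase of granule docking, held 198, 192, 198 and 201 TPM, a spread of 3.57 TPM (SD, n = 4), and its effector gene Sytl4 held 184, 186, 235 and 217 TPM. Cplx2, for complexin 2, had a mean of 188 TPM. The summed share was 0.419%, 0.449%, 0.447% and 0.452%.

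Receptors for hormones and nutrients were led by Glp1r, the receptor of the incretin GLP-1, at 415, 410, 460 and 423 TPM. Prlr, the prolactin receptor gene, stood at 164, 175, 212 and 175 TPM, Adra2a, an adrenergic receptor that restrains secretion, at 74.0, 94.4, 101 and 109 TPM, and Sstr3, a somatostatin receptor, at 94.7, 84.5, 88.3 and 78.7 TPM. Of the 23 genes, 16 (69.6%) were above the receptor level. Of 21 genes of serotonin synthesis and prolactin signalling, 16 (76.2%) were above it. They were led by Ddc, the aromatic amino acid decarboxylase gene, at 170, 206, 195 and 181 TPM, with Maob at 167 ± 3.84 TPM and Ivd at 155 ± 36.1 TPM (SD, n = 4). Tph1, which encodes the rate-limiting hydroxylase, stood at 28.0, 17.4, 4.62 and 6.30 TPM, with Het 1 and Het 2 above Het 3 and Het 4.

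Of 28 cell-cycle genes, 13 (46.4%) were above the receptor level, a share close to the 51.1% of all nuclear coding genes, and 6 had a mean of at least 10 TPM. Ccnd2, the main D cyclin of mouse beta cells, stood at 228, 241, 295 and 270 TPM, Ccnd1 had a mean of 61.7 TPM, and the inhibitor genes Cdkn1b and Cdkn1a had means of 45.0 and 44.4 TPM. Mki67, a proliferation marker, stood at 7.45, 6.0, 8.20 and 6.91 TPM, while Cdk1 and Ccnb1, of cells entering mitosis, had means of 2.43 and 1.24 TPM and were not above the receptor level.

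Interferon-related genes are the ones that ADAR is known to restrain, and their level in these Adar-heterozygous cells was examined next. Of 67 type I interferon-stimulated genes, 51 (76.1%) were above the receptor level in each library, against 51.1% of all nuclear coding genes, but the median was 17.6 TPM and only 4 had a mean of at least 100 TPM. Lgals3bp, a secreted glycoprotein gene, stood at 251, 264, 193 and 248 TPM. Ifit1, an antiviral protein gene that binds foreign RNA caps, stood at 170, 178, 148 and 269 TPM. Isg20, an exonuclease gene, stood at 180, 166, 160 and 152 TPM, and Irf1, an interferon regulatory factor, at 97.3, 109, 84.0 and 110 TPM. Isg15, with a mean of 11.5 TPM, was below the median of the list, of which 40 genes had a mean of at least 10 TPM. Low members included the nucleic acid sensor gene Zbp1 at a mean of 2.08 TPM, Ifitm3 at 1.76 TPM and Tgtp1 at 0.408 TPM.

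The interferon-stimulated list took 0.269%, 0.285%, 0.226% and 0.330% of reads, a range of 1.46-fold with Het 3 lowest and Het 4 highest. Rsad2, the viperin gene, stood at 101, 85.7, 51.3 and 159 TPM and Mx2 at 52.5, 53.1, 37.2 and 72.3 TPM, both lowest in Het 3 and highest in Het 4. The receptor genes took 0.163%, 0.105%, 0.0806% and 0.227% of reads and had the same lowest and highest library. Their part in the difference was not tested.

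None of the 5 interferon genes listed stood clear of the receptor level. Ifna4 had a mean of 2.68 TPM, Ifnb1 2.07, Ifnl2 1.70, Ifnl3 1.2 and Ifng 0.881 TPM, with at least 1 library of each below the receptor level. The receptor and signalling genes were present: Jak1, the kinase on which both type I and type II interferon receptors depend, stood at 102, 102, 101 and 101 TPM, a range of 1.01-fold, and Jak2 at 58.5, 60.7, 54.7 and 61.4 TPM. After TMM scaling Jak1 was less even, with deviations from its mean between -0.19 (log2) in Het 4 and 0.30 in Het 3. Irf9 and Stat2, both of the type I interferon transcription complex, had means of 40.3 and 39.2 TPM. Ifnar1 and Ifnar2, the type I receptor chains, had means of 26.7 and 7.28 TPM. Of 24 genes in this list 17 (70.8%) were above the receptor level.

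**Figure D3:**
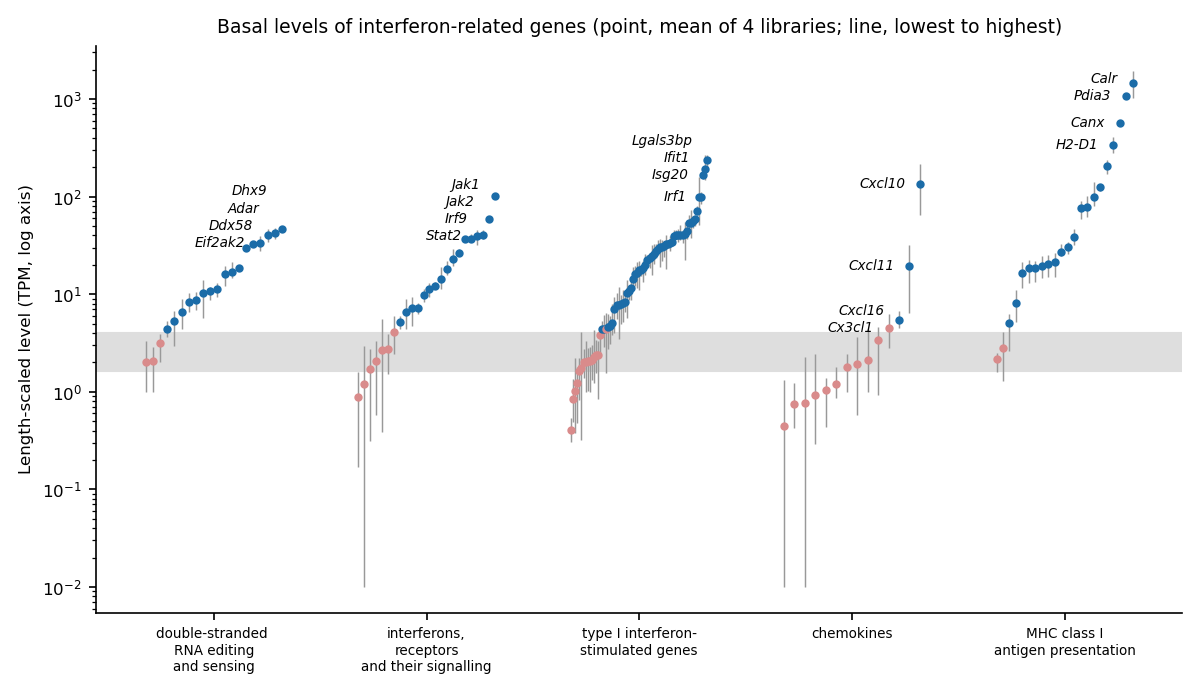
Length-scaled level (TPM, log axis) of each gene in 5 interferon-related lists, as the mean of 4 libraries with a line from the lowest to the highest library (0 drawn at 0.01). Blue points are above the receptor level in each library, red points are not, and the grey band spans the receptor level. Cxcl10 stands apart among chemokines at a mean of 135 TPM, while 16 of 67 interferon-stimulated genes are red.

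Double-stranded RNA sensors and related enzymes were present at moderate levels, with 17 of 20 (85.0%) above the receptor level and none with a mean of 100 TPM. Dhx9, a helicase that unwinds double-stranded RNA, was highest at 45.9, 47.0, 45.5 and 47.0 TPM. Ddx58, the gene of the RNA sensor RIG-I, stood at 38.0, 43.4, 34.4 and 46.7 TPM, and Eif2ak2, the gene of the kinase PKR, at 32.5, 33.8, 27.8 and 39.6 TPM. The sensor gene Ifih1, which encodes MDA5, stood at 7.51, 9.26, 6.56 and 10.3 TPM. In TPM these 3 genes were lowest in Het 3 and highest in Het 4, but after TMM scaling Ddx58 was lowest in Het 1 and highest in Het 2, and Eif2ak2 was lowest in Het 1. The adaptor gene Mavs had a mean of 11.2 TPM and the second editing enzyme gene, Adarb1, 16.9 TPM.

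Of the antigen presentation genes, 20 of 22 (90.9%) were above the receptor level, against 51.1% of all nuclear coding genes, with a median of 28.8 TPM. Calr, Pdia3 and Canx, which also serve general protein folding, led this list with means of 1469, 1060 and 562 TPM. Among genes of class I presentation proper, the heavy chain H2-D1 stood at 301, 409, 278 and 353 TPM, H2-K1 at 203, 238, 171 and 202 TPM, and the light chain B2m at 79.2, 84.5, 90.1 and 141 TPM. H2 genes are close paralogs, and reads common to several of them may have been counted elsewhere or not at all. The regulator Nlrc5 had a mean of 5.03 TPM.

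Chemokine RNA came mainly from Cxcl10 and Cxcl11. Cxcl10, which attracts activated T cells, stood at 114, 145, 64.7 and 216 TPM, and Cxcl11, a related gene annotated as a polymorphic pseudogene, at 26.3, 31.7, 6.37 and 13.7 TPM. The 2 did not follow one order: Het 4 was highest for Cxcl10 and Het 2 for Cxcl11, while Het 3 was lowest for both. Cxcl16 had a mean of 5.44 TPM and Cx3cl1 4.46 TPM, and 3 of 14 listed chemokines (21.4%) were above the receptor level. Cxcl9 and Ccl5, chemokines often seen with inflammation, had means of 1.05 and 1.2 TPM.

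Traces of other cell types were sought with marker lists, and the sum over all markers of 16 other cell types was 0.119% ± 0.00996 (SD, n = 4) of the length-scaled total. For comparison, the 6 beta-cell markers Ins1, Ins2, Iapp, Chga, Pdx1 and Mafa were all above 100 TPM in each library, as were 9 of the 10 further beta-cell markers by their mean, with Trpm5 at 41.3 TPM. Bulk RNA cannot separate fewer cells of a type from less RNA per cell.

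Hormones of the other islet cells were present, while several factors that define those cells were not above the receptor level. Gcg, the glucagon gene, stood at 38.1, 68.7, 87.9 and 134 TPM, Sst, the somatostatin gene, at 113, 63.2, 169 and 150 TPM, and Ppy, the pancreatic polypeptide gene, at 41.8, 48.5, 18.3 and 58.5 TPM. Relative to Ins2, Gcg amounted to 0.0277% to 0.107%, Sst to 0.0471% to 0.119% and Ppy to 0.0118% to 0.0464%. The alpha-cell factors Irx1 and Irx2, with means of 1.45 and 2.13 TPM, and the delta-cell factor Hhex, at 0.903 TPM, were among those. Of the marker lists, 5 of 8 alpha-cell genes (62.5%; among them Gcg, Ttr, Gc and Slc7a2), 2 of 5 delta-cell genes (40.0%; Sst and Rbp4) and both PP-cell genes passed. Summed levels were 348 to 608 TPM for the alpha, 134 to 206 TPM for the delta and 43.5 to 112 TPM for the PP list. Ttr, a marker of alpha cells that other islet cells also express, stood at 216, 320, 433 and 317 TPM. Ghrl, of epsilon cells, had a mean of 4.05 TPM.

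Exocrine, vascular, blood and stromal markers were near the receptor level. None of 22 acinar enzyme genes was above it in each library, the highest being Ctrb1, a chymotrypsinogen gene, at 2.22, 5.15, 1.24 and 7.45 TPM, and the 22 summed to 60.7, 44.1, 30.4 and 76.4 TPM. The same holds for all 7 T-cell, all 3 measured natural killer cell, all 8 fibroblast or stellate cell, all 3 measured red blood cell and all 3 adipocyte markers. One marker each passed for endothelial cells (Esam, mean 4.38 TPM), B cells (Cd79a, 4.13 TPM) and neutrophils (S100a8, 4.94 TPM). The highest markers of the lists that did not pass were Cd3d at 3.03 TPM, Ncr1 at 2.48, Acta2 at 3.10, Alas2 at 2.64 and Adipoq at 3.22 TPM. Summed levels were 10.7 to 25.5 TPM for endothelial, 6.10 to 16.8 for T-cell, 7.19 to 14.7 for B-cell, 4.38 to 19.6 for neutrophil and 7.76 to 17.2 TPM for fibroblast or stellate markers, and each of these sums, like that of the receptor genes, was lowest in Het 3. No marker was at 0 reads in all 4 libraries.

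In the macrophage list 3 of 10 genes passed, namely C1qa, Cd68 and Csf1r, and the list summed to 80.0 to 125 TPM. C1qa, a complement gene of macrophages, stood at 89.8, 83.7, 56.7 and 67.2 TPM, but its partner genes C1qb and C1qc had means of 1.40 and 1.49 TPM, and Ptprc, the pan-leukocyte gene, 0.952 TPM. C1qa thus made up most of that sum. In the duct list, which summed to 172 to 195 TPM, 6 of 8 genes passed. Krt7, an epithelial keratin gene, led it at 78.0, 81.5, 74.8 and 61.0 TPM, while Sox9 had a mean of 0.699 TPM. Krt19 stood at 10.8, 5.76, 27.5 and 6.31 TPM, highest in Het 3. Krt8, a gene of the same kind that is in none of the marker lists, had rank 9 among coding genes at 2815, 2227, 2400 and 1785 TPM.

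**Figure D4:**
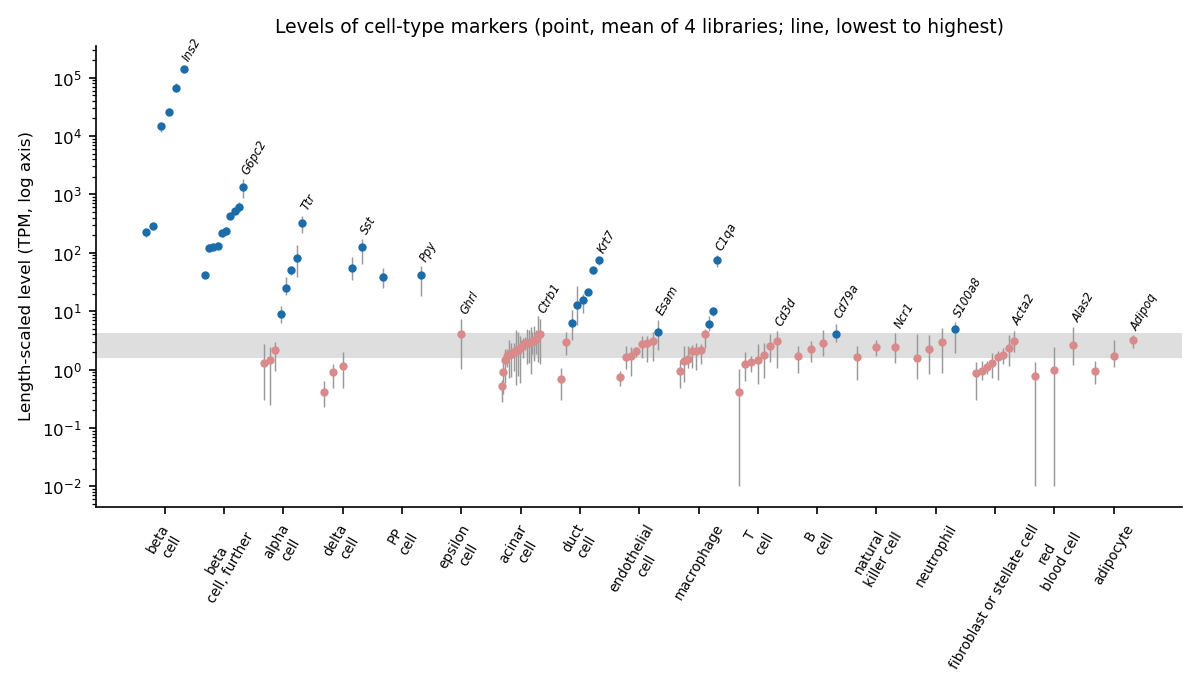
Length-scaled level (TPM, log axis) of each marker in 17 cell-type lists, as the mean of 4 libraries with a line from the lowest to the highest library (0 drawn at 0.01). Blue points are above the receptor level in each library, red points are not, and the highest marker of each list is named. Beta-cell markers reach 138193 TPM, and all 22 acinar markers are red.

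Nuclear and structural non-coding RNA took 2.51% ± 0.276 (SD, n = 4) of reads. Rn7sk, the 7SK RNA that restrains transcription elongation, stood at 48318, 51494, 41481 and 39731 TPM, and Malat1, a nuclear-retained RNA, at 7174, 7777, 5756 and 5431 TPM. In TPM both were higher in Het 1 and Het 2 than in Het 3 and Het 4, but after TMM scaling Het 3 was above Het 1 for both. Rmrp, the RNA of the RNase MRP complex, stood at 4492, 4089, 7126 and 4510 TPM, and Rn7s2, a copy of the signal recognition particle RNA, at 214, 264, 684 and 358 TPM, both highest in Het 3. The predicted coding genes Gm10800, Gm10801 and Gm21738 together took 0.361%, 0.169%, 0.170% and 0.577% of reads. Gm10800 and Gm10801 had ranks 5 and 10 among coding genes, at means of 10998 and 2078 TPM, and, like the receptor genes, highest in Het 4.

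Variation between libraries was measured as the SD of log2(value + 1) over the 4 libraries for the 6058 genes with a mean of at least 200 normalized counts. After scaling by trimmed means (TMM), the median SD was 0.23, and 95 genes (1.57%) had an SD of at least 0.5. The SD expected from counting alone had a median of 0.07. The common biological coefficient of variation by edgeR, fitted with a mean only, was 0.164 over 16044 genes. The scaling mattered: under TMM the median of these genes deviated from the gene means by -0.08, 0.07, 0.24 and -0.21 (log2) in Het 1 to Het 4, and 76.0% of the genes had their highest value in Het 3 and 67.6% their lowest in Het 4. Scaled so that the medians of these genes were equal, a choice added after the data were seen, the median SD was 0.12, 77 genes had an SD of at least 0.5 and Het 3 was the highest library for 27.7% of genes. Of the 100 genes with the largest SD under TMM, 84 were also among the 100 largest with equal medians.

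With equal medians the median absolute difference of a gene was 0.11 (log2) between Het 1 and Het 2 and 0.11 between Het 3 and Het 4, against 0.14 to 0.17 for the 4 pairs across. The number of genes that differed at least 2-fold was 8 for Het 1 and Het 2, 25 to 55 for pairs across, and 30 for Het 3 and Het 4. Pearson correlations across genes, which are not independent replicates, did not set Het 3 and Het 4 apart as a pair: they were 0.983 for Het 1 and Het 2, 0.974 for Het 3 and Het 4, 0.975 for Het 2 and Het 4 and 0.957 to 0.966 for the other 3 pairs. Under TMM the pair Het 3 and Het 4 had the largest median difference, 0.46, and Het 1 and Het 2 the smallest, 0.17.

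Among the most variable genes were several of small RNAs. Rprl3, Rprl2 and Rprl1, annotated as RNase P RNA-like genes, held 171 to 296, 63.2 to 128 and 45.2 to 90.8 reads per 1000000 in Het 1, Het 2 and Het 4 and 0.390, 0.312 and 0.312 in Het 3. The small RNA genes Rny3 and Rny1, of the Ro-associated Y RNAs, were the reverse, with 786 and 176 reads per 1000000 in Het 3 against 154 to 434 and 51.1 to 80.5 elsewhere. Rps3a1, a ribosomal protein gene with many processed copies, stood at 70.2, 66.8, 243 and 219 TPM, so that Het 1 and Het 2 did not overlap Het 3 and Het 4. Reads of such genes depend on how copies were assigned, which is not given in the sources used here.

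The remaining variable genes encode proteins. Sftpd, a collectin gene, stood at 66.0, 41.8, 7.93 and 18.5 TPM, Tph1 at 28.0, 17.4, 4.62 and 6.30 TPM and Csf2rb, a cytokine receptor chain gene, at 22.3, 12.9, 3.53 and 7.19 TPM. In each of these 3, Het 1 and Het 2 were above Het 3 and Het 4, under TMM and with equal medians. Genes chosen after their values were seen, because they shared that split, were Gbp4, an interferon-induced GTPase gene, at 65.4, 58.8, 12.3 and 29.1 TPM, Txnip, a glucose-responsive gene, at 258, 290, 87.8 and 124 TPM, and Igfbp5 at 85.5, 80.3, 27.4 and 41.3 TPM. Others ran the opposite way: Prom1 stood at 17.8, 20.2, 46.5 and 30.6 TPM, Ckb, brain creatine kinase, at 47.6, 24.3, 68.1 and 78.6 TPM, and Dcx at 5.46, 4.12, 10.4 and 8.60 TPM.

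**Figure D5:**
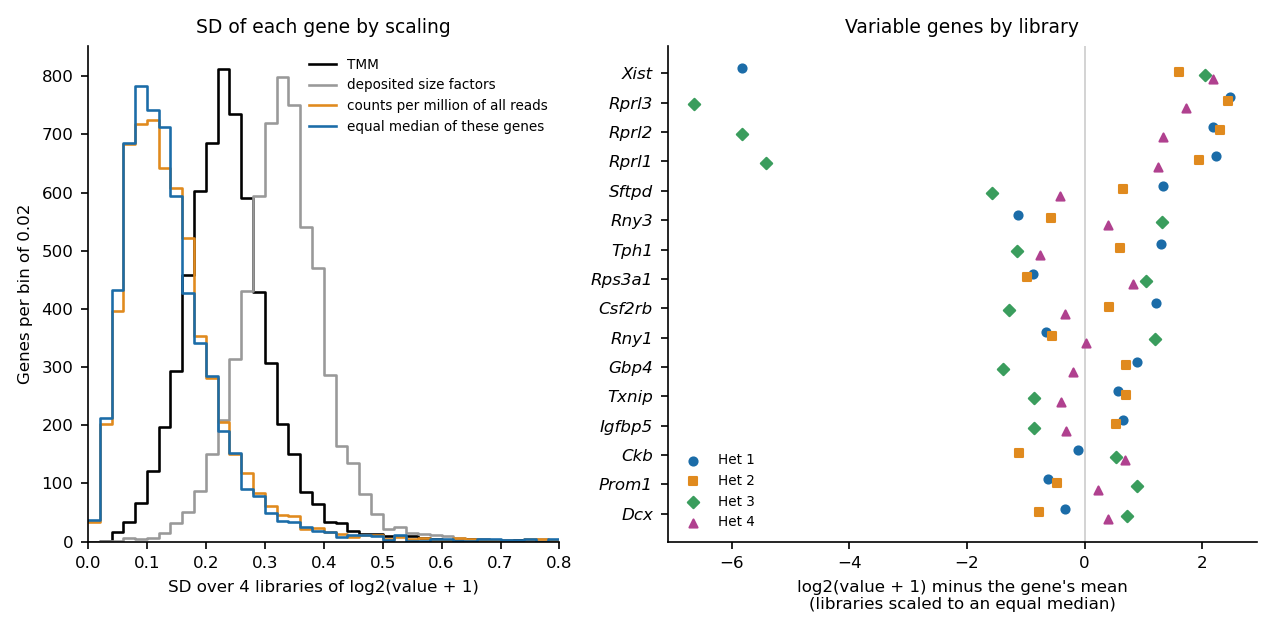
Left, number of genes per 0.02 of SD over 4 libraries of log2(value + 1) for 6058 genes under 4 scalings. Right, log2(value + 1) of 16 variable genes in each library minus the gene's mean, with libraries scaled to an equal median. The histogram moves from a median of 0.12 with equal medians to 0.33 with the deposited size factors, and among the named genes Xist is low in Het 1 and the Rprl genes are low in Het 3.

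Sex-linked genes split the libraries in another way. Xist, the RNA of the inactive X chromosome, stood at 0.407 TPM in Het 1 and at 75.1, 90.9 and 104 TPM in Het 2, Het 3 and Het 4. Ddx3y, a gene of the Y chromosome, stood at 50.8 TPM in Het 1 and at 18.1, 19.3 and 16.2 TPM in the others, which was 31.9% to 38.1% of the Het 1 level. Eif2s3y stood at 24.4, 8.19, 8.32 and 5.71 TPM and Uty at 12.1, 4.15, 3.96 and 3.69 TPM. Het 2, Het 3 and Het 4 therefore held RNA of both kinds, while Het 1 held Y-linked RNA with Xist below its receptor level. The labels used here give no sex, and whether these libraries hold cells of several animals was not tested.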

How the data were processed

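RNA was measured in 4 libraries of sorted beta cells of the Adar heterozygote, grouped by their labels. The 4 columns of the other genotype were not used. Tools named, per the submitters' processing notes, are STAR 2.7.3a, HTSeq and DESeq2 1.28.1, beside UMI-tools and FastQC 0.11.8, and the build is mm10. How molecular identifiers and reads that fit several loci were treated is not given in the sources used here. The deposited signal values are gene counts that the authors divided by 1 size factor per library, as the values show: 100% of the nonzero values were whole multiples of the library's smallest step within 0.001, and reads were recovered on that basis.

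Of 44343 gene rows, 42980 matched a symbol of GENCODE M21, and unmatched rows held 0.284% to 0.394% of reads. Levels were scaled by the exon union of each gene over 40769 genes of at least 200 exonic bases. That limit was set after the values were seen. Class shares carry exact 95% binomial intervals. Variation was computed on TMM-scaled values with a pseudocount of 1 and edgeR 4.0.16 (R 4.3.3, Python 3.11.15), and the method was tested on simulated data. Promoter sequences are RefSeq's and small-gene sequences are GENCODE's. With 1 group no groups were compared. The only test was Dixon's test for 1 library that stands apart. Spread is that between these libraries. Whether they came from separate animals is not given, so part of it may be technical, and how much was not tested. Sex-linked RNA differed between Het 1 and the other libraries, as given above.

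Gene lists and markers were chosen with earlier results of these data known. Named genes are the beta-cell markers, the 10 largest by share of reads, the 10 coding genes highest by level, the 4 highest of each list, the highest marker of each other cell type, the 10 most variable genes, Adar, Xist and Ddx3y. Other genes in the text, from the lists or beyond, were named after their values were seen. Some genes that the lists hold are not reported here. Alternatives were other scalings, filters, pseudocounts and leaving out each library.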

Additional observations from a re-analysis of the deposited data

Results flagged for a closer look

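In 10 of 153 values examined (37 class shares and 116 named genes), 1 library stood apart from the other 3 by more than the range of those 3 would allow at the 95% level. Chance alone flags about 1 in 20 groups. Het 1 was the separate library 4 times, Het 3 4 times, and Het 2 and Het 4 once each.

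Het 3 held 10.4% of its reads in insulin genes, against 8.30% to 8.43% in the other libraries. The same library was highest for Gm42418, at 31635 TPM against 15876 to 17537, for Rmrp, at 7126 TPM against 4089 to 4510, and for Lars2, at 275 TPM against 147 to 154. Het 1 was highest for the Y-linked genes Ddx3y (50.8 TPM against 16.2 to 19.3), Eif2s3y (24.4 TPM against 5.71 to 8.32) and Uty (12.1 TPM against 3.69 to 4.15). It was lowest for exocytosis genes, at 0.419% of reads against 0.447% to 0.452%. Het 2 was highest for beta-cell transcription factors, at 0.352% of reads against 0.333% in each of the others, and Het 4 for Cacna1d, at 51.4 TPM against 47.3 to 47.7. After TMM scaling Cacna1d was highest in Het 3 and not in Het 4.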

How the results depend on the processing

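No paired analysis was possible because there was 1 group and no comparison between groups. As percent of length-scaled values in place of reads, insulin genes took 20.4%, other islet hormones 2.74%, beta-cell transcription factors 0.215%, interferon-stimulated genes 0.201%, channels 0.140%, mitochondrial ribosomal RNA 14.4%, mitochondrial coding RNA 2.19% and ribosomal protein genes 1.29%. As percent of nuclear protein-coding reads, insulin genes took 11.2%, other hormones 1.23%, granule proteins 4.52%, beta-cell transcription factors 0.427%, channels 0.489% and ribosomal protein genes 0.907%. Markers of other cell types together took 0.0952% of reads, and 0.0600% of length-scaled values without C1qa, Ttr, Sst and Krt7 (added after the data were seen).

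By length-scaled values 14 genes made up 50%. Detected genes numbered 9717 at 5 TPM, and 12084 at 1 TPM with genes of all lengths (added after the data were seen). The median SD was 0.33 with the deposited size factors (156 genes at 0.5 or more), 0.13 with scaling by all reads and 0.12 with equal medians. Without a filter it was 0.49, with 21530 genes at 0.5 or more. Those genes numbered 361 at a mean of at least 50 counts and 21 at 1000. The edgeR coefficient was 0.220 without a filter. Leaving out 1 library gave a median SD of 0.18 (without Het 3) to 0.27 (without Het 2), an edgeR coefficient of 0.135 (without Het 3) to 0.190 (without Het 2), and 83 to 142 genes at 0.5 or more. The causes were not tested. Genes near the receptor level, such as most markers of other cell types, are limited by depth and by background reads.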
